A study of Mus musculus with 3 samples.

Results

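The Nodal pathway genes described here are 10 genes of the mouse: Nodal, Gdf3, Lefty1, Lefty2, Cer1, Tdgf1, Cfc1, Acvr2b, Foxh1 and Pcsk6. They were found as the non-control array probes whose accession belongs to one of these symbols, which gave 13 probes of 39429, with 3 probes for Tdgf1 and 2 for Gdf3. RNA came from Hopx-/- embryoid bodies (null) and Hopx+/- embryoid bodies (heterozygous) at day 8 of cardiac differentiation, and both RNAs were hybridised together on a 2-colour Agilent array, once for each of 3 biological replicates. Embryoid bodies are clumps of differentiating embryonic stem cells in which tissues of several germ layers appear. Hopx encodes a small homeodomain protein of heart and progenitor cells. Both genotypes came from stem cells derived from blastocysts on feeder cells with a MEK1 inhibitor that was later withdrawn, and both were differentiated in medium with VEGF, bFGF, FGF10 and ascorbic acid. The comparison culture is heterozygous, so no wild-type level was measured, and the labels do not say whether replicates were separate stem cell lines, so p-values measure only the spread between these samples.

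Nodal is a secreted ligand of the TGF-beta family that keeps the early epiblast responsive, induces the primitive streak and its mesoderm and endoderm, and later marks the left side of the embryo. It binds type I and type II activin receptors only together with an EGF-CFC coreceptor, and the receptors phosphorylate Smad2 and Smad3, which enter the nucleus and act with Foxh1. Lefty1 and Lefty2, which block the ligand and its coreceptor, are themselves induced by the pathway, as is Nodal, so that the pathway carries both positive and negative feedback.

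Replicate 3 did not run with its labels. The labels give Cy5 to null RNA on all 3 arrays, yet over the probes kept the log2 ratios of replicate 3 as labelled correlated at r = -0.90 with each of replicates 1 and 2, which correlated with each other at r = 0.94. Over bright spots, the authors' deposited value table correlated with the scanner ratios at r = 0.96 and r = 0.95 for replicates 1 and 2, and at r = -0.96 for replicate 3. Replicate 3 was therefore turned as in that table, and its direction comes from the authors' table and not from the labels. Ratios are log2 of null over heterozygous throughout. Hopx itself stood at log2 ratios of -2.98 and -2.97 on replicates 1 and 2 and at -3.45 on replicate 3 once turned. Between 61.9% and 72.9% of spots per channel were well above background. Precision is limited by having 3 arrays. Of 19814 genes tested with limma, 11947 (60.3%) passed at adjusted p under 0.05, 5980 higher and 5967 lower. Median centring without loess put 74.6% of calls higher against 50.1% here, with the median of all genes at 0.24 against 0.00338.

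Upstream sequence was at hand for 6 of the 10 genes (Nodal, Cer1, Tdgf1, Cfc1, Acvr2b and Pcsk6), from RefSeq on build GRCm38.p6, with no match for Lefty1, Lefty2, Foxh1 and Gdf3. The 250 bases before the annotated start are shown for the 3 of these genes whose signal was more than 2-fold higher in null cultures, since Nodal signals reach genes through Smads and Foxh1, whose short motifs were searched there. They lie at chr10:61417722-61417971 (plus strand) for Nodal, chr4:82885152-82885401 (minus strand) for Cer1 and chr9:110946159-110946408 (minus strand) for Tdgf1, and capitals mark a CAGACA match.
Nodal: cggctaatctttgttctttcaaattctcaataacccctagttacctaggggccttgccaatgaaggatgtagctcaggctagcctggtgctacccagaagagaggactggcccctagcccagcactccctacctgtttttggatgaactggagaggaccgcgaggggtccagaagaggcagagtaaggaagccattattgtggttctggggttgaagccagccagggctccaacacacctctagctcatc
Cer1: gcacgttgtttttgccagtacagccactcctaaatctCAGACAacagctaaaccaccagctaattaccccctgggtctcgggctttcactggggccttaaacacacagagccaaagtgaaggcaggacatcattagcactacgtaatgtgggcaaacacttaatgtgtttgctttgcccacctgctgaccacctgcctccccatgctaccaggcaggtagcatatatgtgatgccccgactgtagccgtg
Tdgf1: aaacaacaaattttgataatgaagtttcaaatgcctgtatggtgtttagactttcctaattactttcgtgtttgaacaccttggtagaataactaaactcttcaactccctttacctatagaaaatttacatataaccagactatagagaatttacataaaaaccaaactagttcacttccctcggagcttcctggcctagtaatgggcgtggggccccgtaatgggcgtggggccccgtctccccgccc

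Windows from 250 bases before to 50 after the start were searched on both strands for AATCCACA and AATACACA (Foxh1) and for GTCTAGAC and CAGACA (Smad), none of which contains another. CAGACA was present in 1 of the 6 genes, Cer1, on the strand of the gene with its first base 213 bases before the start, and in 21.0% of all 32851 promoters. AATCCACA, AATACACA and GTCTAGAC were in none of the 6 and in 0.855%, 0.980% and 0.213% of all promoters.

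In null embryoid bodies 7 of the 10 genes were more than 2-fold higher by the mean of the 3 arrays: both ligands (Nodal, Gdf3), all 3 secreted antagonists (Lefty1, Lefty2, Cer1), the coreceptor Tdgf1 and the nuclear partner Foxh1. Pcsk6 rose by less than 2-fold, Cfc1 fell slightly, and Acvr2b did not pass. The test therefore called 8 higher and 1 lower, beside 30.2% of all genes tested called higher and 30.1% called lower. At 2-fold or more, 7 of the 10 were called higher and 0 lower, beside 4.87% of all genes higher and 6.03% lower. The median log2 ratio of the 10 was 1.79. The same counts, 8 higher and 1 lower, were found from replicates 1 and 2 alone, where 11878 genes were called. Cer1 was kept for testing through null RNA alone, since its heterozygous signal was not well above background on replicate 1. Where both channels had to be above background, 9 of the members were tested, 7 were called higher and 1 lower, with a median of 1.73.

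**Figure D1:**
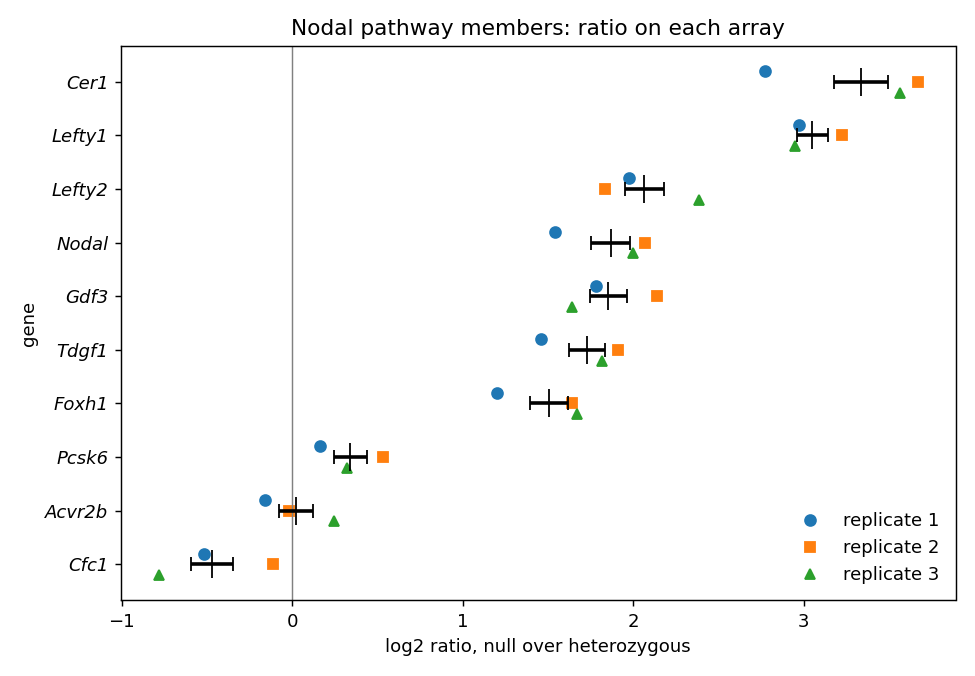
Log2 ratio of null over heterozygous (x axis) for each gene (y axis), with a marker for each of the 3 arrays and a bar at the mean with its moderated SE. The 7 genes from Cer1 to Foxh1 lie between 1.20 and 3.67 on every array, while Pcsk6, Acvr2b and Cfc1 lie between -0.78 and 0.53.

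The ligand Nodal had normalized log2 signals of 11.50, 11.53 and 11.43 in null cultures, against 9.96, 9.46 and 9.44 in heterozygous cultures (replicates 1, 2 and 3). All 3 null values lay above all 3 heterozygous values, and the heterozygous value of replicate 1 was the highest of its group. The ratios on the arrays were 1.54, 2.07 and 2.00, a mean of 1.87 (SE 0.11, n = 3 arrays, limma adjusted p = 3.3e-06), or 3.65-fold higher in null. Without replicate 3 the ratio was 1.80.

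Gdf3 encodes another TGF-beta family ligand of the early embryo that can signal through the same receptors and coreceptor. Its brighter probe had log2 signals of 10.42, 10.72 and 10.21 in null cultures, against 8.63, 8.58 and 8.57 in heterozygous cultures, with no overlap. The heterozygous values were nearly equal, and the null value of replicate 2 was the highest. Its mean ratio was 1.85 (SE 0.11, limma adjusted p = 2.6e-06), or 3.62-fold, and 1.96 without replicate 3. The dimmer Gdf3 probe rose too, with ratios of 0.76, 0.80 and 0.84 and a mean of 0.80 (SE 0.08, limma adjusted p = 5.5e-05), so that the probes share a direction and differ in size.

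Among the secreted antagonists, Cer1 had the largest ratio of the 10 genes. Cer1 encodes Cerberus 1, a cysteine-knot protein of anterior visceral endoderm and anterior mesendoderm that binds Nodal and Bmps outside the cell. Its log2 signals were 9.35, 10.04 and 10.23 in null cultures, against 6.58, 6.38 and 6.66 in heterozygous cultures, so the null value of replicate 1 was the lowest of its group and still lay far above the heterozygous range. The array ratios were 2.77, 3.67 and 3.57, with a mean of 3.33 (SE 0.16, limma adjusted p = 1e-06), or 10.1-fold, and 3.22 without replicate 3. Only 8 of the 19814 genes tested had a larger ratio. Heterozygous Cer1 signal stood well above background on replicates 2 and 3 and not on replicate 1, and the ratio's size is not firm: processed signals of the scanner software gave 5.52, and the authors' deposited table gave 2.90.

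Lefty1 encodes a divergent TGF-beta family protein that blocks Nodal signalling, known in the anterior visceral endoderm and along the midline of the embryo. Its log2 signals were 10.88, 10.99 and 10.96 in null cultures, against 7.91, 7.76 and 8.01 in heterozygous cultures. Both groups were tight and lay about 3 log2 units apart. Its ratios of 2.97, 3.23 and 2.95 gave a mean of 3.05 (SE 0.09, limma adjusted p = 1.5e-07), or 8.27-fold, with 19 of all genes tested above it, and 3.10 without replicate 3.

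Lefty2, the related inhibitor of nascent mesoderm and of the left lateral plate, had log2 signals of 10.20, 9.90 and 10.39 in null cultures, against 8.23, 8.06 and 8.01 in heterozygous cultures, again without overlap. Its mean ratio was 2.06 (SE 0.11, limma adjusted p = 2e-06), or 4.18-fold, and 1.90 without replicate 3. The Lefty1 ratio exceeded the Lefty2 ratio on each of the 3 arrays, by 1.00, 1.39 and 0.56 (mean 0.98, SD 0.41). The sequences of the probes were not used here, so how far each of these near relatives is read by the other's probe is not known.

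**Figure D2:**
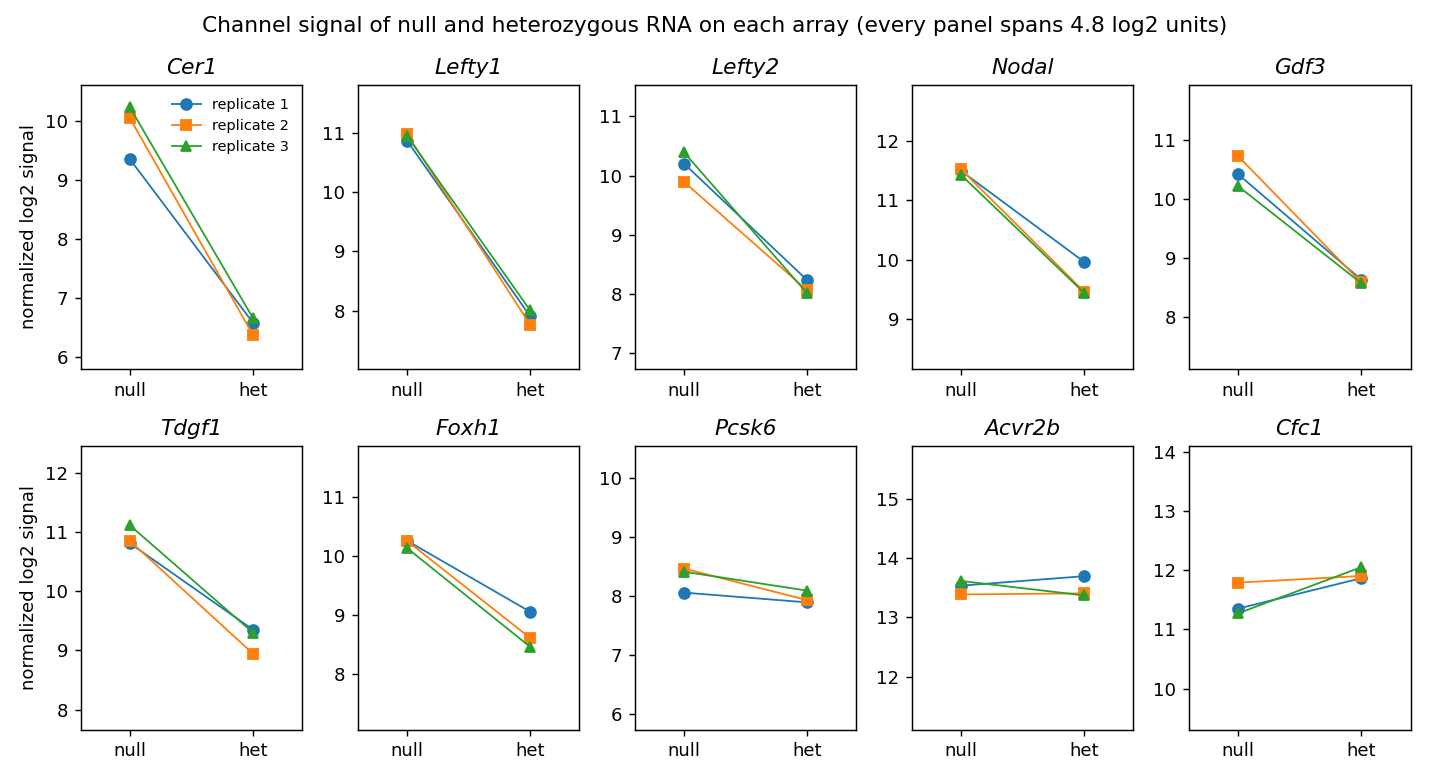
Normalized log2 signal (y axis) of null (left) and heterozygous (het, right) RNA on each array, joined by a line per replicate, in a panel per gene of equal height. Null lies above heterozygous without overlap in 7 panels and below it in the panel of Cfc1, and the genotypes overlap for Pcsk6 and Acvr2b.

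Of the EGF-CFC coreceptors, 1 was higher and the other lower in null cultures. Tdgf1 encodes Cripto, the membrane-anchored coreceptor of the epiblast and primitive streak that lets Nodal and Gdf3 engage their receptors. Its brightest probe had log2 signals of 10.81, 10.85 and 11.11 in null cultures, against 9.35, 8.94 and 9.30 in heterozygous cultures, without overlap. The mean ratio was 1.73 (SE 0.10, limma adjusted p = 3.2e-06), or 3.31-fold, and 1.69 without replicate 3. The other Tdgf1 probes also rose without overlap of the genotypes, by 0.77 (SE 0.13) and 1.09 (SE 0.19), and their ratios on replicate 1, 0.40 and 0.36, were the lowest of the 3 arrays. With the 3 probes averaged, Tdgf1 stood at 1.19.

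Cfc1 encodes Cryptic, the coreceptor best known from the node and lateral plate, where left-right asymmetry is set up. It had log2 signals of 11.35, 11.79 and 11.27 in null cultures, against 11.86, 11.90 and 12.05 in heterozygous cultures, and the groups were parted by a narrow gap, since replicate 2 differed little between genotypes. The ratios were -0.51, -0.11 and -0.78, with a mean of -0.47 (SE 0.12, limma adjusted p = 0.01), and -0.31 without replicate 3. This call is not firm. It was lost with median centring without loess (-0.05, limma adjusted p = 0.761), in the authors' deposited table (-0.43, limma adjusted p = 0.0663) and with an ordinary t statistic per probe (adjusted p = 0.206).

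Foxh1 encodes the forkhead factor that takes Smad2 and Smad3 to their target genes. Its log2 signals were 10.26, 10.26 and 10.13 in null cultures, against 9.06, 8.61 and 8.46 in heterozygous cultures, so the null values were nearly equal and the heterozygous value of replicate 1 was again the highest. The mean ratio was 1.50 (SE 0.11, limma adjusted p = 8.5e-06), or 2.84-fold, and 1.42 without replicate 3. With the ordinary t statistic it lay just beyond the threshold (adjusted p = 0.0501).

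The receptor and the convertase had small ratios. Acvr2b, a type II receptor for Nodal and activins, had log2 signals of 13.54, 13.39 and 13.62 in null cultures, against 13.70, 13.41 and 13.37 in heterozygous cultures, and these overlapped. Its ratio was 0.02 (SE 0.10, limma adjusted p = 0.87) with a 95% confidence interval from -0.20 to 0.25, and -0.09 without replicate 3. With median centring without loess it was 0.46 and was called (limma adjusted p = 0.0074), where the median of all genes stood at 0.24. Pcsk6 encodes the convertase PACE4, which cleaves the Nodal precursor. Its log2 signals of 8.06, 8.47 and 8.41 in null cultures, against 7.89, 7.93 and 8.09 in heterozygous cultures, overlapped. The ratio was 0.34 (SE 0.10, limma adjusted p = 0.014), a call that was lost without replicate 2 (0.24, limma adjusted p = 0.126), in the authors' deposited table (0.19, limma adjusted p = 0.207) and with the ordinary t statistic (adjusted p = 0.148).

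Levels of null and heterozygous cultures did not overlap for 7 genes with null higher and for 1 with null lower, beside 26.3% of all genes tested with null higher and 26.3% with null lower. Ordered by ratio, the genes ran Cer1, Lefty1, Lefty2, Nodal, Gdf3, Tdgf1, Foxh1, Pcsk6, Acvr2b and Cfc1. Neighbours differed in the same direction on all 3 arrays between Lefty1 and Lefty2, between Tdgf1 and Foxh1 (mean difference 0.22, SD 0.07), between Foxh1 and Pcsk6 (1.17, SD 0.17), between Pcsk6 and Acvr2b (0.32, SD 0.24) and between Acvr2b and Cfc1 (0.49, SD 0.48). Cer1 and Lefty1, Lefty2 and Nodal, Nodal and Gdf3, and Gdf3 and Tdgf1 changed places between arrays. A ratio is also damped on dim probes by the background offset, so the order is that of these probes.

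With the ratio of replicate 3 left as labelled, limma called 0 of the 10 genes and 0 genes in all, with 62 genes at an unadjusted p under 0.05. The mean ratios were then 0.54 for Nodal, 0.76 for Gdf3, 0.96 for Cer1, 1.08 for Lefty1 and 0.47 for Lefty2. They were 0.52 for Tdgf1, 0.05 for Cfc1, 0.39 for Foxh1, -0.14 for Acvr2b and 0.13 for Pcsk6, each with a limma adjusted p = 1.

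**Figure D3:**
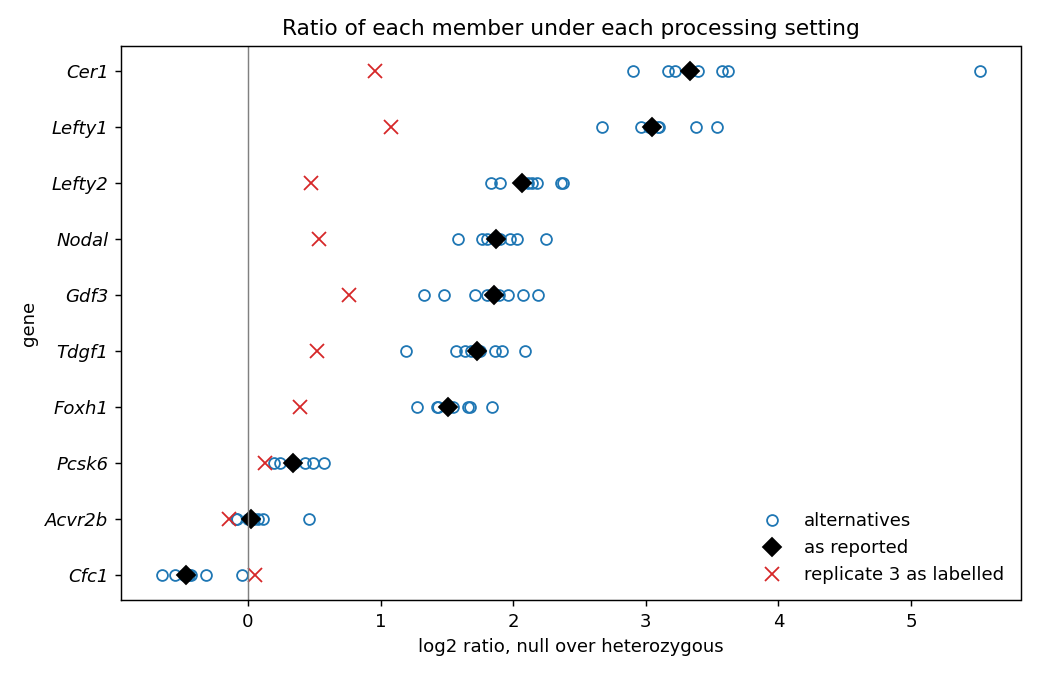
Log2 ratio of null over heterozygous (x axis) for each gene (y axis) as reported (diamonds), under each alternative processing (circles) and with replicate 3 as labelled (crosses). The 7 genes from Cer1 to Foxh1 stay at 1.19 or above under every alternative other than replicate 3 as labelled, and the circle at 5.52 is Cer1 with the scanner software's processed signals.

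The rest of the pathway's machinery was mixed in direction, with mostly small ratios. Of 34 other genes in 4 lists, 32 were tested, of which 6 rose, 13 fell and 13 did not pass, with a median ratio of -0.14 beside 0.00338 over all genes tested. Beside the shares over all genes tested (60.3% called, 30.2% higher and 30.1% lower), the number called is near the background and is not a result about these lists. Of the 32 tested, 2 were changed at least 2-fold, beside 4.87% of all genes higher and 6.03% lower at that size. This count is not a result about the lists either. With median centring without loess the split was 10 higher and 3 lower, so the small falls are not firm. Among the ligands, 3 of 7 rose and 2 fell: Tgfb3 by 0.96 (SE 0.08), Gdf1, a partner of Nodal in left-right patterning, by 0.93 (SE 0.09), and the activin subunit gene Inhba by 0.44 (SE 0.09), while Tgfb2 fell by 1.45 (SE 0.08) and Tgfb1 by 0.43 (SE 0.09). Mstn was not well above background.

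The type I receptor gene Acvr1b, through which Nodal signals, stood at 0.05 (SE 0.10, limma adjusted p = 0.69) and the type II receptor gene Acvr2a at -0.09 (SE 0.09, limma adjusted p = 0.43). Of 4 receptors tested, the TGF-beta receptor gene Tgfbr2 alone passed, at -0.26 (SE 0.09, limma adjusted p = 0.04), and this call is not firm: it was lost without replicate 1 (limma adjusted p = 0.0986), without replicate 2 (-0.17, limma adjusted p = 0.284), with processed signals, in the authors' deposited table, with unpaired channels and with the ordinary t statistic, and the ratio turned to 0.15 with median centring without loess. Its dimmer probe was lower on all 3 arrays, at -1.27 (SE 0.08, limma adjusted p = 4.5e-06). With the Tgfbr2 probes averaged the ratio was -0.77 (limma adjusted p = 8.92e-05), so its size depends on the probe. Tgfbr1 was measured on 2 arrays at 0.25, with a dimmer probe at -0.53. Acvr1c did not pass the filter on dim probes. Its brighter probe was well above background on 2 arrays in heterozygous RNA and on 1 in null RNA. With only 4 receptors tested, the number called is not a result about this list, beside 60.3% of all genes tested.

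Of 6 other antagonists and convertases, 3 fell and 0 rose, where 30.2% of all genes tested were called higher and 30.1% lower. With 60.3% of all genes called, the number called is not a result about this list. Furin, a convertase that also cleaves the Nodal precursor, stood at -0.48 (SE 0.09), Inha at -0.47 (SE 0.13) and Fstl3 at -0.31 (SE 0.10). Inha stood at -0.27 without replicate 3, and Fstl3 lost its call without replicate 1 (limma adjusted p = 0.0694) and without replicate 3 (-0.21, limma adjusted p = 0.0885). In the authors' deposited table neither passed (limma adjusted p = 0.114 for Inha and 0.108 for Fstl3). With median centring without loess, 0 of the 6 were called lower and 1 was called higher. Dand5, the Nodal antagonist of the node, stood at 0.19 (SE 0.08, limma adjusted p = 0.078).

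Smads and their nuclear partners gave 3 higher and 7 lower of 15, or 5 higher and 2 lower with median centring without loess. Over all genes tested 60.3% were called, 30.2% higher and 30.1% lower, so the number called is not a result about this list. Smad2 stood at -0.09 (limma adjusted p = 0.4), Smad4 at -0.02 (limma adjusted p = 0.9) and Smad3 at -0.24 (SE 0.08, limma adjusted p = 0.03). Pmepa1, a feedback inhibitor induced by TGF-beta signals, rose by 1.55 (SE 0.09, limma adjusted p = 3.2e-06), and its other probe by 0.96. The other 2 that rose were the Smad corepressor genes Tgif1 at 0.47 and Tgif2 at 0.36. A dimmer Tgif2 probe stood at 0.14 and did not pass (limma adjusted p = 0.25), so the Tgif2 call depends on the probe. Dact2, which promotes breakdown of Nodal receptors in zebrafish, fell by 0.74 (SE 0.11), and Zfyve9, the Smad anchor SARA, fell by 0.58 (SE 0.08). With the scanner software's processed values, Pmepa1 stood at 2.53 and Dact2 at -1.32, so their sizes depend on the background correction, and Zfyve9 lost its call with unpaired channels (limma adjusted p = 0.0818).

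Genes known to respond to Nodal were mainly higher in null cultures. Of 13 tested, 10 rose, 2 fell and 1 (Hhex, at 0.14) did not pass, with a median of 1.30, beside 30.2% of all genes tested called higher and 30.1% lower, and 8 of those that rose did so at least 2-fold. With processed values the counts were the same and the median was 2.19, and with the ordinary t statistic 5 were called higher and 1 lower. T and Mixl1 passed the filter on dim probes through null RNA alone. Where both channels had to be above background, 11 were tested, 8 rose and 2 fell, with a median of 1.30. Mesp1, which marks the first mesoderm of the heart, rose by 3.76 (SE 0.09), and Eomes, a T-box factor of the streak, by 2.52 (SE 0.11). T (Brachyury), which drives mesoderm formation, was too dim in heterozygous RNA to stand above background on any array. Its fitted ratio was 2.75, or 6.72-fold higher in null (limma adjusted p = 1.5e-05), a size that is open to dye bias. The ratio also depends on the background correction, at 5.61 with processed values. These genes are shared in part with the streak and endoderm markers given further on. Both that fell are endoderm factors, Sox17 at -1.78 (SE 0.08) and Foxa2 at -1.54 (SE 0.13). Of 10 genes of the node and of left-right patterning, 6 were tested, 2 rose and 2 fell. The ciliary factor gene Foxj1 rose by 1.00 (SE 0.13), or 1.83 with processed values, while Dnah11, a motor of node cilia, fell by 2.04 (SE 0.09) and Shh by 0.72 (SE 0.09).

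**Figure D4:**
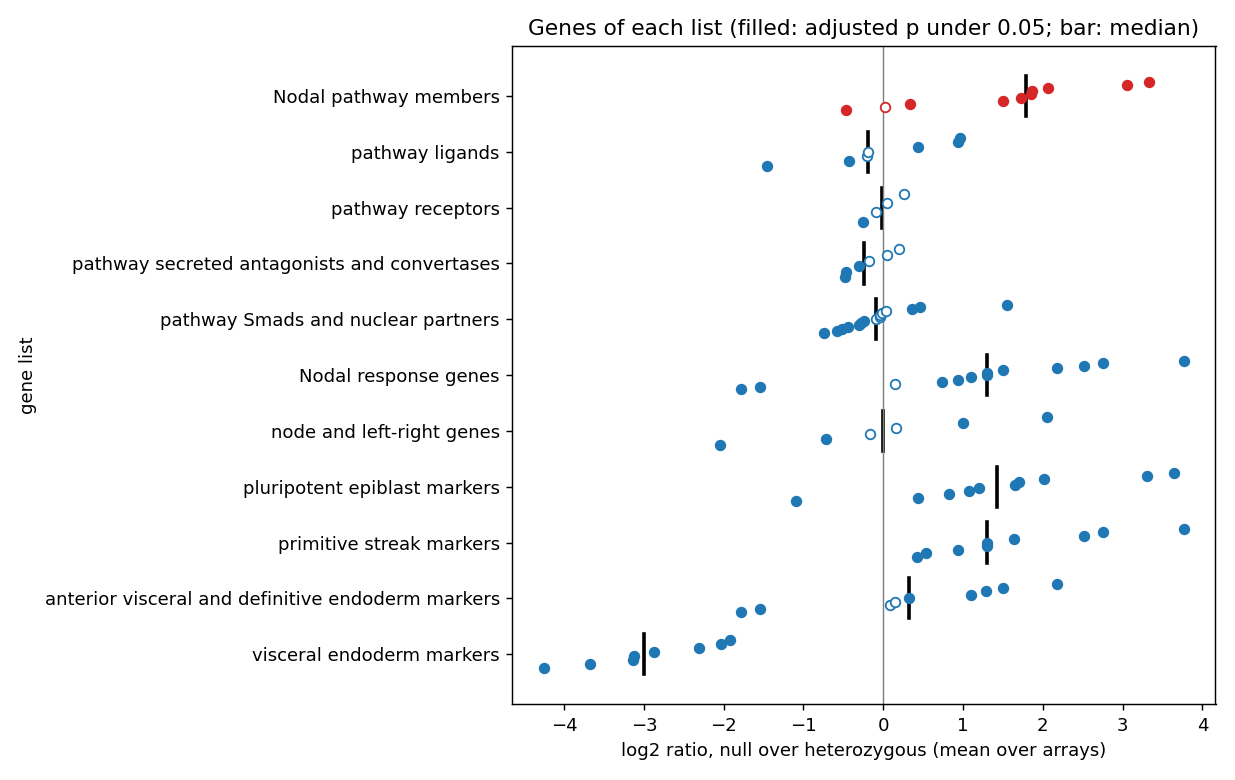
Log2 ratio of null over heterozygous (x axis) for each gene (a point), with a list in each row, filled where the adjusted p was under 0.05, with a bar at the list's median. The Nodal pathway members have a median of 1.79 and the Nodal response genes of 1.30, while the 4 lists of other pathway genes have medians between -0.24 and -0.02.

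Markers of cell types that are known to express these genes differed between genotypes as well, and fewer cells of a type and less RNA per cell cannot be told apart in such bulk samples. Of 10 markers of pluripotent epiblast, which makes Nodal, Tdgf1 and Gdf3, 9 rose and 1 fell (Zfp42, at -1.09). Their summed signal ran from 36500 to 44300 in null cultures, against 18200 to 23500 in heterozygous cultures. Fgf5 rose by 3.65 (SE 0.15), Pou3f1 by 3.30 (SE 0.09) and Nanog by 2.01 (SE 0.14), and of the other Nanog probes 1 stood at 1.50 and the dimmest at -0.34, with a mean over probes of 1.06. All 9 markers of the primitive streak rose, where 30.2% of all genes tested were called higher and 30.1% lower. Of the 9, T, Mixl1 and Mesp2 passed the filter on dim probes through null RNA alone. Heterozygous signal was not well above background for T and Mixl1 on any array, and for Mesp2 on replicate 3. Where both channels had to be above background, 6 were tested and 6 rose. With probes averaged, or in the authors' deposited table, 8 were called higher, and the dimmer Tbx6 probe stood at -0.04. Summed signal of the 9 was 7000 to 7520 in null cultures, against 1990 to 2470 in heterozygous cultures. The part of these cell types in the higher Nodal pathway genes was not tested.

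For the endoderm that is known to make Cer1 and Lefty1, the markers were split, where 30.2% of all genes tested were called higher and 30.1% lower. Of 9 markers of anterior visceral and definitive endoderm, 5 rose, among them Otx2 by 2.17 (SE 0.10), 2 fell (Sox17 and Foxa2) and 2 did not pass. Hesx1, 1 of the 5, passed the filter on dim probes through null RNA alone. Where both channels had to be above background, 8 were tested, 4 rose and 2 fell, with a median of 0.23. Their summed signals overlapped, at 13500 to 17500 in null cultures and 15400 to 17800 in heterozygous cultures. All 8 markers of visceral endoderm fell, with Cubn at -4.25 (SE 0.10), Rbp4 at -3.68 (SE 0.12) and Amn at -3.14 (SE 0.09), and a summed signal of 14400 to 20300 in null cultures, against 117000 to 149000 in heterozygous cultures.

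Markers of other cell types that the cultures could hold differed too, where 30.2% of all genes tested were called higher and 30.1% lower. All 8 cardiomyocyte markers fell, led by Myh6 at -5.31 (-3.35 over its averaged probes), Myh7 at -5.11 and Myl4 at -4.77. Tnni3 passed the filter on dim probes through heterozygous RNA alone. Where both channels had to be above background, 7 were tested and 7 fell. Tnnt2 was measured on 2 arrays and left out of the sum. The summed signal over the other 7 was 21300 to 31000 in null cultures, against 205000 to 261000 in heterozygous cultures. All 8 markers of blood and endothelium rose (Hba-x by 2.38, Tal1 by 1.97, Gata1 by 1.97), and the dimmer Kdr probe stood at -0.19. Their summed signal of 35100 to 62400 in null cultures, against 10100 to 15300 in heterozygous cultures, was mostly Hba-x. Hba-x had a mean log2 signal of 15.30 in null cultures and 12.92 in heterozygous cultures. Of 5 neuroectoderm markers tested, 4 rose (among them Zic2 by 2.60, Tubb3 by 2.29 and Sox3 by 2.22), and Sox1 passed narrowly at 0.25 (limma adjusted p = 0.046), with its other probe at -0.02. With any 1 replicate left out, 4 of the 5 were called. Their summed signal was 8320 to 10400 in null cultures, against 1990 to 2350 in heterozygous cultures, and Pax6 and Neurog2 did not pass the filter on dim probes. Of 8 feeder and fibroblast markers, 5 rose and 0 fell (Col1a2 by 1.59, Lum by 1.17, Dcn by 1.05). Col1a1 (-0.19, on 2 arrays), S100a4 (0.11) and Fbn1 (0.25) did not pass. The summed signal over 6 of the 8 was 34700 to 47100 in null cultures, against 12900 to 18600 in heterozygous cultures. It was mostly Col1a2, at a mean log2 signal of 15.01 in null cultures and 13.42 in heterozygous cultures. Col1a1, at 12.36 and 12.55, was left out of the sum. The part of these cell types in the results above was not tested.

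Over the 3 arrays, the genes whose ratios came nearest to those of Nodal, among 14058 named genes, were Jakmip1, Rbmxl2, Atm, Usp44 and Maneal, at root mean square distances of 0.060 to 0.076 on the log2 scale. Nearest to Cer1 were Olig1, Pou3f1, Tbx4, Slc27a2 and Snhg3, at distances of 0.24 to 0.37.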

How the data were processed

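The deposited files hold each spot's intensity in both channels, its local background and its flags. Their software was Agilent Feature Extraction, version 11.5.1.1 in the file headers and version 8.5.1.1 in the submitters' processing notes. The authors also deposited a value table whose scale, normalization and centring are not stated, read here as log2 ratios of the same arrays. Its slopes on the scanner ratios of bright spots were 0.946, 0.953 and -0.948, and its column medians were -0.10, -0.11 and 0.072. All arrays share a slide and a scan.

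Median foregrounds were corrected by normexp (offset 50) and normalized by loess within arrays with limma 3.58.1 in R 4.3.3, with control and outlier spots at weight 0 and outlier spots then left out, saturated spots kept and spots of a probe averaged. Channel levels were also scaled by Aquantile. Replicate 3 was turned, so the null RNA is its Cy3 channel, and with 2 arrays in one orientation and 1 in the other a dye effect does not cancel. Probes well above background on all 3 arrays in the null or in the heterozygous channel were kept (24574 of 39429), and their mean ratio was tested against 0 (lmFit, eBayes) with Benjamini-Hochberg adjustment over all of them. A gene was given its brightest probe. SEs are moderated. Probes were named through accessions in a RefSeq table (GRCm38.p6), which named 71.1% of probes, and the array design is on mm9. Summed signals add a list's linear channel signals.

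The members and lists were chosen with earlier results of these data known. Named are the 10 members, Hopx, up to 3 called genes of each other list with the largest change, and the 5 genes nearest to Nodal and to Cer1. Other genes complete counts of 5 or fewer, are known parts of the pathway or limit the count of their list, and were chosen after their values were seen. Motif and protein searches were planned, and the protein comparison was not made. The values of 1 gene of the node and left-right list are not reported here. The statistic was tested on simulated data. A bound for a probe dim in 1 channel set the bright mean against, per array, the lowest signal of any probe well above background, or the dim signal itself where higher. For T this bound was the same as the fitted 6.72-fold, so no separate bound is given.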

Additional observations from a re-analysis of the deposited data

How the results depend on the processing

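The 7 genes higher by at least 2-fold kept their direction under every alternative run, and lost their call only with replicate 3 as labelled, except Foxh1, which also lost it with the ordinary t statistic, and Cer1, which was not tested where both channels had to be above background. Ratios ranged from 1.58 to 2.25 for Nodal, 2.67 to 3.54 for Lefty1, 1.83 to 2.38 for Lefty2, 2.90 to 5.52 for Cer1, 1.19 to 2.09 for Tdgf1, 1.33 to 2.19 for Gdf3 and 1.28 to 1.84 for Foxh1, leaving out replicate 3 as labelled. With replicate 3 as labelled, 0 members and 0 genes were called higher or lower, which follows from an array of opposite sign, and Cfc1 (0.051), Inha (0.11) and Fstl3 (0.032) changed sign. Median centring without loess called 2927 genes lower, 0 members lower, and 10 pathway genes higher and 3 lower, and turned Tgfbr2 to 0.15. The authors' deposited table gave 3912 genes higher, 0 members lower and 6 pathway genes lower. With an ordinary t statistic per probe, 3998 genes passed (1964 higher, 2034 lower), as did 6 members higher and 0 lower, and 3 pathway genes higher and 4 lower. Leaving out a replicate gave 9837 to 11878 genes called, 7 to 8 members higher, 1 lower, and 5 to 6 pathway genes higher and 9 to 12 lower. The ratios pair the genotypes by array, and treating channels as unpaired samples, with no replicate block, 8141 genes, 7 members higher, 1 lower and 3 pathway genes lower were called, Pcsk6 losing its call (adjusted p = 0.0844). The cause of these changes was not tested. Signal over background limits Cer1, Hesx1, Mesp2, Mixl1 and T, which were dim in heterozygous cultures, and Tnni3, which was dim in null cultures.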
